A study of Mus musculus with 6 samples.

Results

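The 9 BMP antagonist genes *Nog*, *Grem1*, *Chrd*, *Chrdl1*, *Chrdl2*, *Fst*, *Fstl1*, *Bmper* and *Twsg1* were followed through the first days of "digits in a dish" (DID) culture. They were chosen by gene symbol, as secreted proteins known to bind BMPs or related ligands, and are 9 of the 32286 genes in the count matrices. DID cultures are high-density cultures of mesenchyme taken from the distal part of forelimb buds of wildtype CD-1 mouse embryos at E11.5, dissociated with trypsin and collagenase, in which digit-like cartilage forms. The medium held fetal bovine serum and no growth factor was added. Single-cell RNA-seq (10x Genomics, 3′ chemistry) was made on Days 2, 7 and 10, each time from 2 independent cultures called replicate A and replicate B, giving 6 libraries. No group was treated or carried a mutation, so that days of culture were the only contrast. Limb tissue was pooled before plating, and whether cultures of different days came from the same pool or seeding is not given in the sources used here.

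Bone morphogenetic proteins (BMPs) are secreted dimers that bring together type I and type II serine/threonine kinase receptors, which phosphorylate SMAD1, SMAD5 and SMAD9. Secreted antagonists bind the ligand outside the cell and keep it from these receptors. In the limb, BMP signalling acts in cartilage condensation, in the choice between digit and interdigit, in joint formation and in growth plate maturation, and the antagonists are known for confining it: *Grem1* holds BMP activity down below the apical ridge while the limb bud grows out, and *Nog* is made in cartilage condensations and is needed for joints to form. Noggin and gremlin sequester BMPs, chordin does so through cysteine-rich repeats and is itself cleaved by tolloid proteases, and *Chrdl1* and *Chrdl2* encode chordin-like proteins with the same kind of repeat. *Bmper* (crossveinless-2) and *Twsg1* (twisted gastrulation) encode chordin partners that can inhibit or aid BMP signalling. *Fst* encodes follistatin, best known as an activin and myostatin inhibitor, and *Fstl1* a follistatin-like glycoprotein of mesenchyme.

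The members lie apart in the genome, and promoter sequence is shown for 3 members, *Grem1*, *Chrd* and *Bmper*, whose levels all rose from Day 2 to Day 10. In GRCm38 coordinates, the genes *Grem1* (chr2:113746164-113758646, minus strand), *Chrd* (chr16:20733127-20742384, plus strand) and *Bmper* (chr9:23223076-23485200, plus strand) are each annotated as protein coding. The other members lie on chromosome 7 (*Chrdl2*), 11 (*Nog*), 13 (*Fst*), 16 (*Fstl1*), 17 (*Twsg1*) and X (*Chrdl1*). The 250 bases ahead of the annotated start, taken from RefSeq (GRCm38.p6), follow in the direction of the gene, with each GGCGCC, a palindromic GC-rich motif, in capitals:
Grem1, chr2:113758649-113758898, minus strand: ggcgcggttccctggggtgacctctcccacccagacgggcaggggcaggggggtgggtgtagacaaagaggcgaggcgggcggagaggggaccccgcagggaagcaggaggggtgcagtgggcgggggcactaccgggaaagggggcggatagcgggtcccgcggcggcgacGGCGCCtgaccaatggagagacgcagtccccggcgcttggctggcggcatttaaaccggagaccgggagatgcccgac
Chrd, chr16:20732877-20733126, plus strand: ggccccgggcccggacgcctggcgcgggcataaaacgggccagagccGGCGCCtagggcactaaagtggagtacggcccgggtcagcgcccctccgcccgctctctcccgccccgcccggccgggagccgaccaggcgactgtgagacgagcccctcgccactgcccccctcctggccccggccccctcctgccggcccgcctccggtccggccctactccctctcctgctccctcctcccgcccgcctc
Bmper, chr9:23222826-23223075, plus strand: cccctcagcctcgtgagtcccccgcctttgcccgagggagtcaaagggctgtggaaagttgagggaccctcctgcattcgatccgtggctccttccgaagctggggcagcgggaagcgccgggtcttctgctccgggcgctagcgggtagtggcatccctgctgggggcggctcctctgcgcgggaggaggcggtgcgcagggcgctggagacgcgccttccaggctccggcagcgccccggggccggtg
These stretches were GC-rich, with 72.0%, 78.0% and 71.6% of bases G or C and with 24, 28 and 24 CpG dinucleotides, against a median G and C content of 52.4% over the 32851 starts of the table. GGCGCC occurred once ahead of *Grem1* and once ahead of *Chrd*, and in 2 of the 5 members' stretches in the table, against 3149 of all starts (9.59%). The windows of *Bmper*, *Fstl1* and *Twsg1* held none. The G and C content was 68.0% ahead of *Fstl1* and 64.4% ahead of *Twsg1*, with 16 CpG dinucleotides each. Promoters of *Nog*, *Chrdl1*, *Chrdl2* and *Fst* were not analysed here. A match is a run of letters and says nothing of binding.

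After filtering, 72099 cells of 91215 barcodes were kept, 9448 to 16486 per library, with 178022112 to 260245417 UMIs (unique molecular identifiers, each standing for a captured transcript) per library. Day 2 replicate B stood apart from the other libraries, with a median of 3871 UMIs per cell against 8062 to 24197 and with 41.4% of its cells under 3000 UMIs. It also supplied 5445 of the cells of Day 2 Cluster 0, against 421 from replicate A, and 2833 against 111 of Cluster 3. Without it, the number of members called in each comparison stayed the same within chondrocyte-like, contractile mesenchyme-like and joint interzone-like cells, no member turned direction there, and the values that changed a call or moved most are given beside the results. Libraries shared 24 to 67 cell barcodes per pair, at most 0.543% of the smaller library. All 9 members passed the filter on low counts, which left 18987 genes.

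Cells of each day were clustered with the members and all other BMP pathway genes left out, which gave Clusters 0 to 11 at Day 2, 0 to 15 at Day 7 and 0 to 17 at Day 10. Clusters were called chondrocyte-like, contractile mesenchyme-like, joint interzone-like, interdigital mesenchyme-like, perichondrium-like, myocyte-like, bone-matrix cell-like or immune-like from fixed markers, and 38.2% to 68.9% of the cells of a library stayed unnamed. The chondrocyte-like class was Cluster 4 at Day 2, led by *Ihh*, *Acan* and *Cytl1*, Clusters 0, 9 and 13 at Day 7 and Clusters 0, 9, 10 and 14 at Day 10, led mostly by *Snorc* and *Matn1*. Hypertrophic chondrocytes were not named apart from this class, and its Clusters 0 and 14 of Day 10 also raised the hypertrophic marker *Col10a1*. Contractile mesenchyme-like cells were Cluster 1 at Day 2, Clusters 2 and 10 at Day 7 and Clusters 1 and 11 at Day 10. None of the contractile markers was among the 10 leading genes of Day 2 Cluster 1, which *Ankrd1* and *Krt19* led, and the leading genes of the perichondrium-like Cluster 3 of Day 7 were mitochondrial transcripts, *Lars2* and long non-coding RNAs, and its cells held 4924 and 4522.5 UMIs at the median. The perichondrium-like Cluster 8 of Day 10 was shallow too, with medians of 7081 and 6416 UMIs against 24197 and 22128 in its libraries.

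In whole cultures, *Grem1*, *Chrd*, *Chrdl1*, *Chrdl2* and *Bmper* rose from Day 2 to Day 10 by 1.92-fold to 4.24-fold, *Fst* fell by Day 7 and came back in part, *Twsg1* fell late, and *Nog* and *Fstl1* differed by at most 0.21 on the log2 scale in each of the comparisons. Values are TMM-scaled CPM, the UMIs of a gene relative to those of its library, summed over all kept cells. In such sums, fewer cells of a type and less RNA per cell cannot be told apart. Changes were tested with the edgeR quasi-likelihood test on UMI counts, with p-values adjusted over all 18987 genes, and with 2 cultures per day these p-values measure the spread between those cultures.

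*Grem1*, the gremlin gene, stood at 10.8 CPM in both Day 2 libraries, at 30.9 and 29.3 CPM at Day 7 and at 45.5 and 45.7 CPM at Day 10. The days did not overlap, and the replicates of a day differed by far less than the days did. It rose by a log2 fold change of 1.48 ± 0.05 (SE) to Day 7 (adjusted p = 4.23e-08) and by 0.60 ± 0.05 from Day 7 to Day 10 (adjusted p = 4.49e-05), which made 4.23-fold in all (log2 2.08 ± 0.05, adjusted p = 5.59e-09, edgeR).

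Chordin and its relatives rose too, from low levels. *Chrd* had 1.17 and 1.36 CPM at Day 2, 2.77 and 3.14 CPM at Day 7 and 4.58 and 4.03 CPM at Day 10, on 271 to 1122 UMIs per library. *Chrdl2* had 1.02 and 0.762 CPM, then 2.88 and 2.78 CPM, then 3.92 and 3.67 CPM, on 155 to 960 UMIs. Both were lowest in the Day 2 libraries and highest in the Day 10 libraries without overlap. *Chrd* rose 3.41-fold between Day 2 and Day 10 (log2 1.77 ± 0.12, adjusted p = 1.37e-06), and *Chrdl2* rose 4.24-fold (log2 2.08 ± 0.14, adjusted p = 1.12e-06). *Chrdl1* went from 12.6 and 10.9 CPM at Day 2 to 31.8 and 28.3 CPM at Day 7 and 34.6 and 32.3 CPM at Day 10. Its rise lay in the first interval (log2 1.35 ± 0.09, adjusted p = 1.38e-06), and the further change to Day 10 was not called (log2 0.15 ± 0.08, adjusted p = 0.15). The late step of *Chrd* was called (log2 0.55 ± 0.11, adjusted p = 0.0041), and that of *Chrdl2* (log2 0.42 ± 0.13, adjusted p = 0.020) lost its call when Day 7 replicate A, Day 7 replicate B or Day 10 replicate A was left out (log2 0.38 to 0.45, adjusted p = 0.066 to 0.11).

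Of the chordin partners, *Bmper* rose and *Twsg1* did not. *Bmper* read 11.9 and 11.6 CPM at Day 2, 23.5 and 19.3 CPM at Day 7 and 23.4 and 21.6 CPM at Day 10. Day 2 lay below both later days, which overlapped each other. *Bmper* was 1.92-fold higher at Day 10 than at Day 2 (log2 0.94 ± 0.09, adjusted p = 1.33e-05). *Twsg1* had 35.1 and 38.1 CPM at Day 2, 40.1 and 37.4 CPM at Day 7, and 31.8 and 29.5 CPM at Day 10, the lowest libraries. It fell by 0.34 ± 0.06 on the log2 scale after Day 7 (adjusted p = 0.0028), and by 0.25 ± 0.06 against Day 2 (adjusted p = 0.0058), a call that was lost without Day 10 replicate B (log2 -0.19, adjusted p = 0.065).

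*Nog*, the noggin gene, was nearly level: 43.2 and 39.5 CPM at Day 2, 46.7 and 46.6 CPM at Day 7, and 41.5 and 39.1 CPM at Day 10. The Day 7 libraries were the highest, and Days 2 and 10 overlapped. The small rise to Day 7 (log2 0.17 ± 0.06, adjusted p = 0.027) and the fall after it (log2 -0.21 ± 0.06, adjusted p = 0.016) were both called, but the rise was lost without Day 2 replicate B (log2 0.11, adjusted p = 0.11) or either Day 7 library, and turned to a log2 change of -0.11 when only library totals were used for scaling, under which the median of all genes was -0.268 instead of 0.014. The fall was lost without either Day 7 library or Day 10 replicate B. Between Day 2 and Day 10 *Nog* was not called (log2 -0.04 ± 0.06, 95% interval -0.15 to 0.08, adjusted p = 0.56).

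*Fst*, the follistatin gene, had its highest libraries at Day 2, with 117 and 103 CPM. It read 51.1 CPM in both Day 7 libraries and 72.6 and 69.4 CPM at Day 10, so that the 3 days did not overlap. *Fst* fell by 1.10 ± 0.07 on the log2 scale to Day 7 (adjusted p = 1.12e-06) and then rose by 0.47 ± 0.07 (adjusted p = 6.12e-04), ending 1.55-fold lower than at Day 2 (adjusted p = 2.75e-05, edgeR). *Fstl1*, the follistatin-like gene, ran from 477 and 448 CPM over 430.4 and 407 CPM to 490.2 and 461 CPM. Days 2 and 10 overlapped, and the change between them was not called (log2 0.04 ± 0.06, 95% interval -0.09 to 0.17, adjusted p = 0.58). The rise of *Fstl1* after Day 7 was called (log2 0.18 ± 0.06, adjusted p = 0.042) but was lost without any of the Day 7 and Day 10 libraries. Its fall to Day 7 (log2 -0.14 ± 0.06) was not called with all libraries (adjusted p = 0.077) and was called without Day 2 replicate B (log2 -0.19, adjusted p = 0.024).

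Counted together, 7 of the 9 members were called from Day 2 to Day 7, 6 higher and 1 lower, where 70.3% of all genes were called, 35.7% higher and 34.6% lower. From Day 7 to Day 10, 7 were called, 5 higher and 2 lower, beside 52.2% of all genes, 26.3% higher and 25.9% lower. From Day 2 to Day 10, 7 were called, 5 higher and 2 lower, beside 77.3% of all genes, 39.0% higher and 38.2% lower. The share of members called lay near that of all genes from Day 2 to Day 10, and the count at the last step fell to 4 without Day 7 replicate A and to 4 without Day 7 replicate B. The members' median log2 fold change was 0.87, 0.18 and 0.94 in the same order, beside 0.01, -0.02 and 0.00 over all genes. The 3 comparisons share libraries. Under scaling by library totals, *Twsg1* and *Fstl1* also turned direction, with log2 changes of -0.20 for *Twsg1* to Day 7 and -0.22 for *Fstl1* to Day 10, against a median of all genes of -0.268 and -0.259. Without Day 2 replicate B, apart from *Nog* and *Fstl1*, the members kept the direction and call given here, and with cells of under 3000 UMIs left out no member changed direction or side of the threshold.

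**Figure D1:**
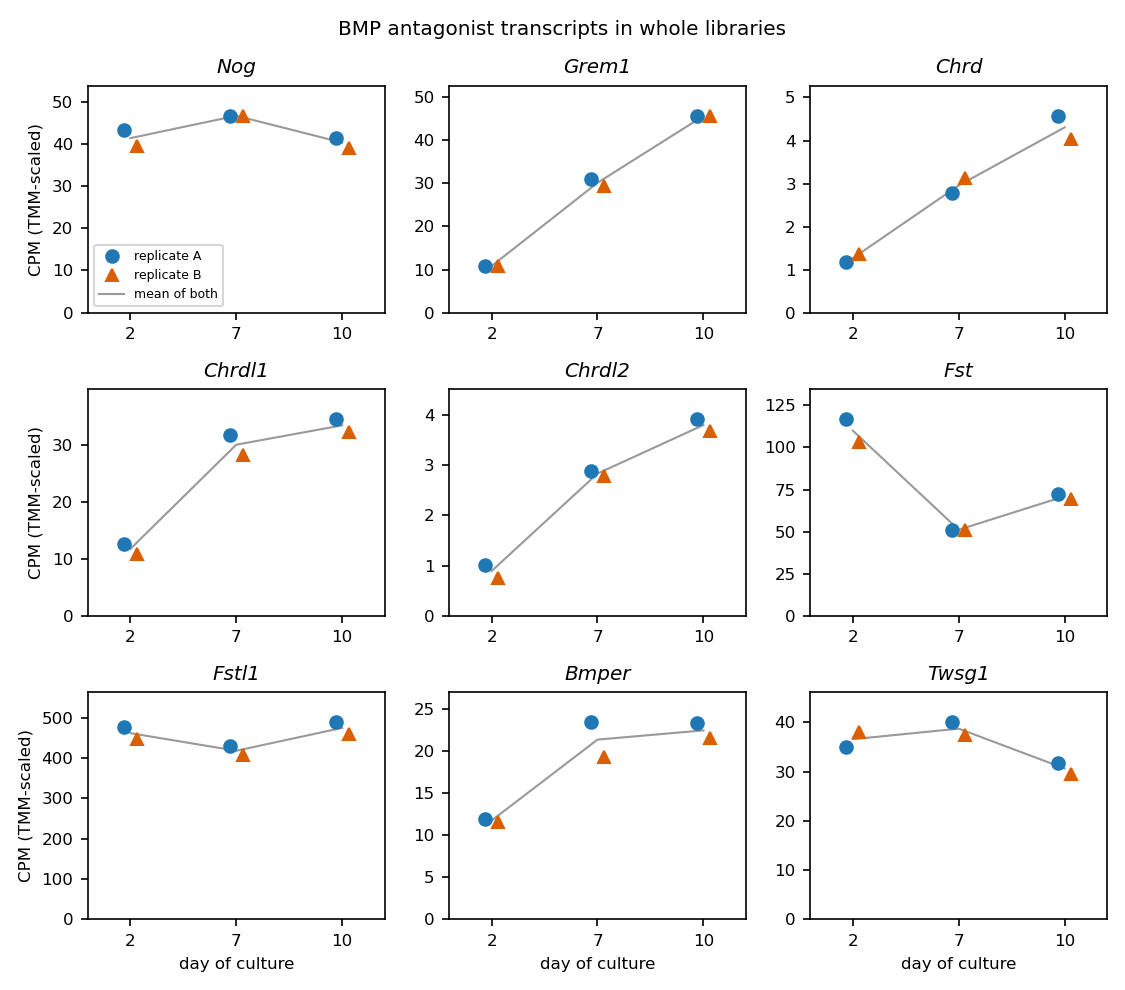
Level of each BMP antagonist gene (TMM-scaled CPM, vertical axis of each panel) by day of culture, with a symbol for each library (circle, replicate A, and triangle, replicate B) and a line through the daily means. *Grem1*, *Chrd* and *Chrdl2* climb at each step, *Chrdl1* and *Bmper* climb once, *Fst* dips at Day 7 (51.1 CPM), and *Nog*, *Fstl1* and *Twsg1* stay within a narrow range.

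The antagonists were held by different cells, and *Nog* was highest in chondrocyte-like clusters on all 3 days. The following values are CPM within a cluster, given for replicates A and B in turn as a description with no test, and genes are not ranked against each other. At Day 2, *Nog* reached 165 and 153 CPM in the chondrocyte-like Cluster 4 and 83.0 and 86.6 CPM in the joint interzone-like Cluster 6, which *Pthlh* and *Gdf5* marked. The lowest cluster was the interdigital mesenchyme-like Cluster 8, at 4.89 and 2.80 CPM. At Day 7 the chondrocyte-like Clusters 9 (83.1 and 87.9 CPM) and 0 (66.9 and 70.4 CPM) led. At Day 10 *Nog* was highest in chondrocyte-like Cluster 9 (106 and 120.5 CPM), and Cluster 0 (96.8 and 89.4 CPM) overlapped the unnamed Cluster 17 (85.9 and 98.9 CPM), led by *Car9*, *Fabp4* and *Scara5*. Bone-matrix cell-like Cluster 15 had 61.8 and 63.8 CPM. Cluster 9 cells were shallow on both days, with median UMIs of 6830 to 7960 against 26455 to 37176 in Cluster 0.

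*Grem1* had another pattern, with its peak outside cartilage. Its highest clusters at Day 2, the joint interzone-like Cluster 6 (22.3 and 27.0 CPM) and the contractile mesenchyme-like Cluster 1 (22.5 and 23.5 CPM), overlapped. At Day 7 it was highest in contractile mesenchyme-like Cluster 2, with 63.5 and 60.3 CPM. At Day 10 it was highest on average in contractile mesenchyme-like Cluster 1 (80.3 and 98.3 CPM), which lay above chondrocyte-like Cluster 9 (77.7 and 70.7 CPM). The unnamed Clusters 13, led by *Msln*, *Sncg* and *Wnt10a* (88.9 and 62.4 CPM), and 12 (95.2 and 34.8 CPM) were split by library and overlapped both. Bone-matrix cell-like Cluster 15, at 4.45 and 5.24 CPM, was the lowest.

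The chordin genes parted from each other. *Chrd* was highest in joint interzone-like cells at Day 2 (Cluster 6, 2.60 and 2.87 CPM) and Day 7 (Cluster 5, 5.96 and 6.1 CPM), the latter overlapping the unnamed Cluster 8 led by *Pcp4*, *Crabp1* and *Tnmd* (4.36 and 6.08 CPM). At Day 10 its leading clusters overlapped. They were the shallow, unnamed Cluster 12 (11.6 and 8.70 CPM, on 5 and 3 UMIs), led by *Lars2* and mitochondrial transcripts, perichondrium-like Cluster 8 (11.3 and 8.16 CPM) and the unnamed Cluster 2 led by *Prg4*, the lubricin gene of joint surfaces (9.01 and 7.27 CPM). *Chrdl1* peaked in the joint interzone-like Cluster 6 at Day 2 (38.0 and 33.4 CPM), above chondrocyte-like Cluster 4 (22.2 and 20.4 CPM), and then in chondrocyte-like Cluster 9 at Day 7 (115 and 86.3 CPM) and Day 10 (143 and 131 CPM). *Chrdl2* began in muscle: myocyte-like Cluster 10 held 14.7 and 12 CPM at Day 2, against 1.26 and 1.40 CPM in Cluster 4. Its top moved to chondrocyte-like Cluster 9 at Day 7 (8.99 and 6.56 CPM) and Day 10 (17.3 and 23.3 CPM), with 13.4 and 12.4 CPM in Cluster 0 at Day 10.

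*Fst* was highest in contractile mesenchyme-like Cluster 1 at Day 2 (286 and 303 CPM), with myocyte-like Cluster 10 next (197 and 211 CPM). At Day 7 the myocyte-like Cluster 14 split by library (316 and 89.8 CPM, on 83 and 60 shallow cells), the unnamed Cluster 8 had 112 and 105 CPM, and chondrocyte-like Cluster 0 was lowest at 9.13 and 8.56 CPM. At Day 10 the unnamed Clusters 13 (288 and 271 CPM) and 17 (188 and 175 CPM) led. *Fstl1* peaked in the shallow, perichondrium-like Cluster 8 at Day 10, at 1188 and 942 CPM, with 655 and 649 CPM in contractile mesenchyme-like Cluster 1. *Bmper* was highest in the shallow, unnamed Cluster 7 at Day 2 (36.2 and 33.4 CPM), above chondrocyte-like Cluster 4 (30.8 and 30 CPM). Cluster 7 raised chondrocyte markers, among them *Col2a1* and *Acan*, and some perichondrium markers. It stayed unnamed because it was shallow with no chondrocyte marker among its 10 leading genes. Clusters 9 and 10 of Day 10 were also under 1/3 of their libraries' median UMIs, but had such markers there and were named. *Bmper* was high in perichondrium-like Cluster 3 at Day 7 (56.6 and 32.3 CPM) and in chondrocyte-like Cluster 9 (65.5 and 64.7 CPM) and perichondrium-like Cluster 8 (72.2 and 49.0 CPM) at Day 10, which overlapped. *Twsg1* at Day 10 ranged from 14.5 and 13.2 CPM in bone-matrix cell-like Cluster 15 to 60.1 and 58.7 CPM in chondrocyte-like Cluster 9.

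**Figure D2:**
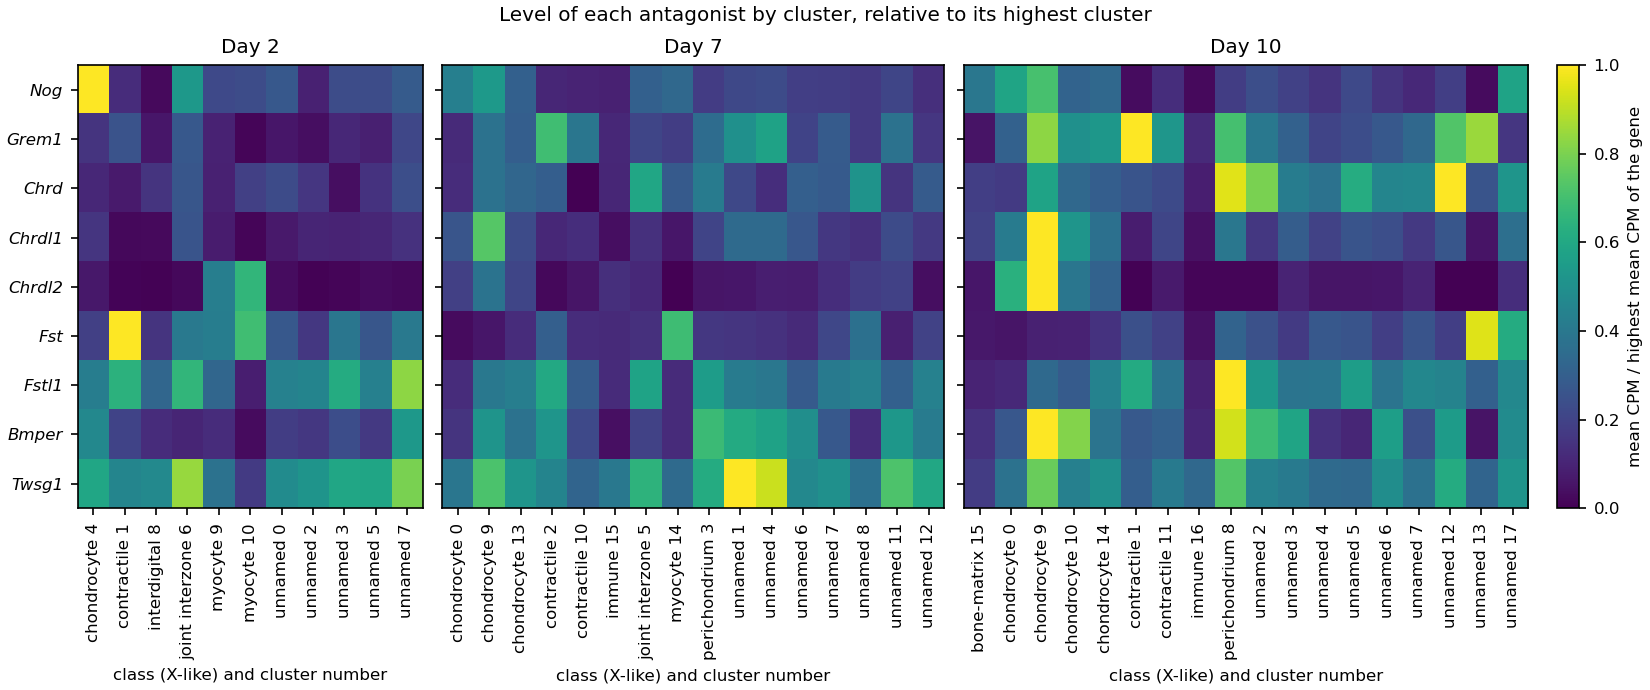
Level of each BMP antagonist (rows) in each cluster (columns, grouped by day and labelled with the class), as mean CPM of both libraries relative to the highest mean CPM of that gene over all clusters and days. Yellow marks the highest level and dark blue the lowest. *Nog* is brightest in the chondrocyte-like Cluster 4 of Day 2, *Fst* in the contractile mesenchyme-like Cluster 1 of Day 2 and Cluster 13 of Day 10, and *Chrdl2* in chondrocyte-like Cluster 9 of Day 10 and, at Day 2, in myocyte-like Cluster 10.

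The share of a member's UMIs that a class supplied depends on the level and on the size of the class. Chondrocyte-like cells supplied 43.4% of *Nog* UMIs in both Day 2 libraries, 64.1% and 65.1% at Day 7 and 57.7% and 53.1% at Day 10, while holding 12.8% and 12.9%, 42.0% and 40.4%, and 24.4% and 23.0% of all UMIs. They supplied more *Nog* than their share of RNA on each day. For *Chrdl2* their share went from 14.0% and 20.6% at Day 2 to 64.9% and 62.3% at Day 7 and 86.0% and 80.1% at Day 10, and for *Chrdl1* from 19.9% and 21.1% to 58.5% and 56.3% and then 48.8% and 45.4%. At Day 2 myocyte-like cells supplied 60.2% and 56.1% of *Chrdl2* UMIs, and joint interzone-like cells 16.0% and 15% of *Nog* and 25% and 21.1% of *Chrdl1*.

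Contractile mesenchyme-like cells supplied 48.1% and 35% of *Grem1* UMIs at Day 2, then 50.9% and 51.5%, then 41.2% and 46.2% on the last day, from 25.9% and 18.3%, 23.4% in both, and 22.2% and 20.8% of all UMIs. They supplied 56.4% and 47.3% of *Fst* at Day 2 and 28.3% and 17.3% at Day 10, when unnamed clusters held 61.4% and 71.8% of it. *Chrd* was mostly held by unnamed clusters at Day 10 (66.8% and 68.1%). The Day 2 chondrocyte-like class grows when clusters are drawn more coarsely or finely: at 0.5 and 2 times the resolution its mean share of *Chrdl1* was 44.6% and 34.0% instead of 20.5%. The Day 7 contractile mesenchyme-like class shrank to 235 and 358 cells at 2 times the resolution, and its mean share of *Grem1* was then 0.584% instead of 51.2% and its mean share of *Fst* 0.339% instead of 43.5%.

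**Figure D3:**
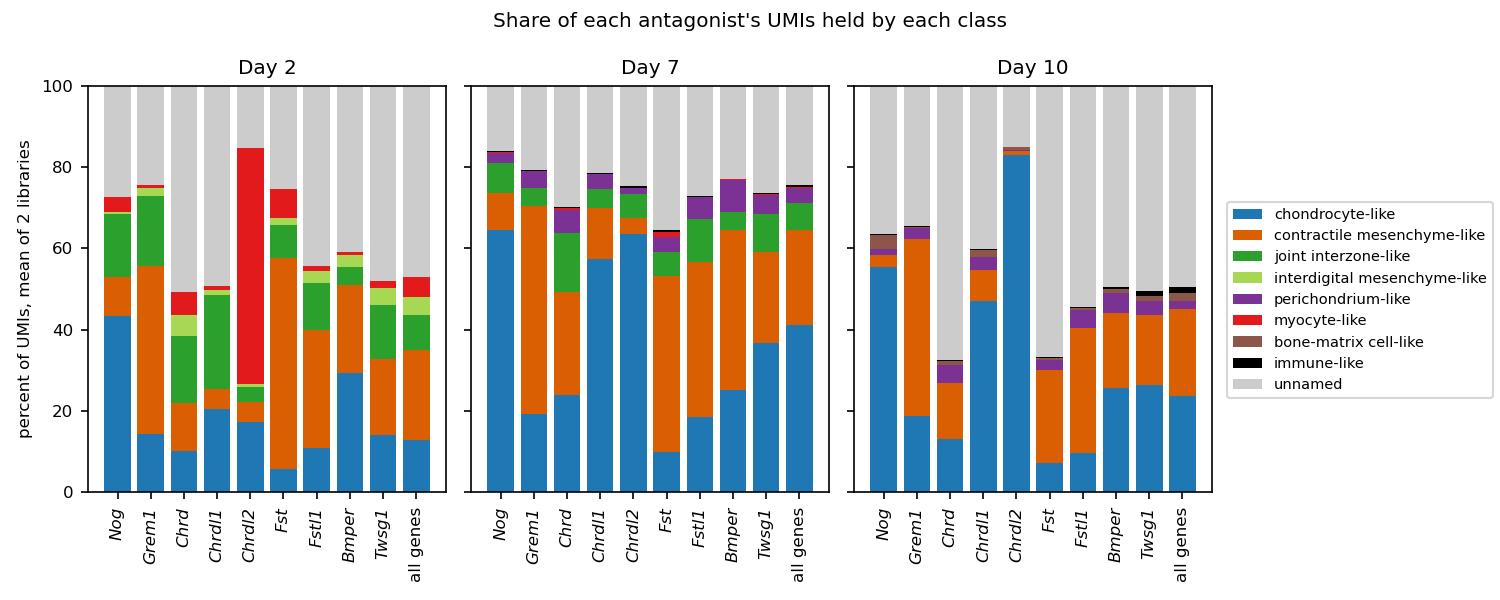
Share of the UMIs of each BMP antagonist, and of all genes, that each cell class supplied (stacked bars, percent, mean of both libraries, a panel for each day). The chondrocyte-like part of *Nog*, *Chrdl1* and *Chrdl2* exceeds that of all genes on Days 7 and 10, and the contractile mesenchyme-like part of *Grem1* and *Fst* exceeds it at Day 2.

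Within chondrocyte-like cells, the sums per library were tested apart from the rest of the culture (edgeR, 16086 genes). For this class, the other classes and the interaction test, shares of all genes count calls in either direction. The share called higher alone is not given for these. From Day 2 to Day 7, 8 of 9 members were called, 4 higher and 4 lower, beside 71.5% of all genes. From Day 7 to Day 10, 7 were called and all 7 were higher, beside 39.6% of all genes, where genes called fell from 6368 to 3961 without Day 7 replicate A and to 4153 without Day 7 replicate B. From Day 2 to Day 10, 7 were called, 4 higher and 3 lower, beside 75.1% of all genes. The hypertrophic and bone-matrix markers raised in this class, over other clusters of the same day, differed between days. At Day 10 *Col10a1* was raised in Clusters 0 and 14 and *Ibsp* in Clusters 0, 9 and 14. Neither was raised in the chondrocyte-like clusters of Days 2 and 7, while *Ihh* and *Panx3* were raised on all 3 days. Other bone-matrix markers went otherwise. *Runx2* and *Sp7* were raised at Day 2 and not at Day 7. At Day 10 *Sp7* was raised in Clusters 0 and 14, *Runx2* in Cluster 10 and *Alpl* in Clusters 0 and 9. Their part in the changes of the members was not tested.

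*Chrdl2* showed the largest fold change among the members in these cells. It read 1.03 and 1.14 CPM at Day 2 (33 and 32 UMIs), 4.72 and 4.58 CPM at Day 7 (365 and 322 UMIs) and 14.1 and 12.9 CPM at Day 10 (826 and 653 UMIs), with no overlap between days. The Day 7 level cannot be told apart from that of immune-like cells, taken as background further on. Theirs was 5.45 and 0 CPM without TMM scaling, on only 5 and 0 UMIs, and is no exact floor. On that scale, contractile mesenchyme-like cells of the same libraries held 0.470 and 0.405 CPM (23 and 19 UMIs) against 4.17 and 3.97 CPM here. How much background added to the Day 7 level was not tested. *Chrdl2* was 12.4-fold higher at Day 10 than at Day 2 (log2 3.64 ± 0.13, adjusted p = 1.16e-11), and the size depended on how the class was drawn, with log2 4.97 at 0.5 times and 4.34 at 2 times the resolution of the clusters. *Chrdl1* rose 3.86-fold, from 18.2 and 16.6 CPM over 47.0 and 42.1 CPM to 70.3 and 64.3 CPM (log2 1.95 ± 0.08, adjusted p = 3.35e-11), and was called at both steps. *Grem1* had 10.9 and 11.3 CPM, then 15.5 and 14.6 CPM, then 38.5 and 34.2 CPM. With these clusters most of its 3.27-fold rise (log2 1.71 ± 0.08, adjusted p = 1.65e-10) came after Day 7 (log2 1.27 ± 0.07, adjusted p = 2.03e-08). At 0.5 times the resolution the rise was 2.56 on the log2 scale, of which 1.39 came by Day 7 and 1.17 after it, so that the timing was not settled. Immune-like cells held 16.1 and 3.59 CPM at Day 7 and 16.3 and 4.94 CPM at Day 10, so the Day 7 level overlapped background and the size of each step is uncertain. *Chrd* rose 2.62-fold on few UMIs (log2 1.39 ± 0.21, adjusted p = 2.89e-05), and its late step stood at the threshold (adjusted p = 0.050) and was not called with replicate letter as a block (adjusted p = 0.063) or at 0.5 times the resolution (log2 0.25, adjusted p = 0.19). Its Day 7 level, 1.67 and 1.51 CPM without TMM scaling, cannot be told apart from the 2.18 and 0 CPM of immune-like cells (2 and 0 UMIs).

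Follistatin genes fell in chondrocyte-like cells. *Fst* went from 50.8 and 40.8 CPM to 13.3 and 12.6 CPM and then 20.1 and 23.5 CPM, a 3.54-fold fall to Day 7 (log2 -1.82 ± 0.10, adjusted p = 8.53e-10) and a partial return (log2 0.75 ± 0.10, adjusted p = 5.71e-05). At Day 7 this was below the 24.7 and 46.7 CPM of immune-like cells, so the Day 7 level was not shown to exceed background and the size of both steps is uncertain. The immune-like value rested on 23 and 52 UMIs and, lying above that of these cells, is no exact floor for *Fst*. *Fstl1* went from 384 and 353 CPM to 206 and 193 CPM and stayed at 195 and 201 CPM, with Day 2 above the later days (Day 10 against Day 2, log2 -0.90 ± 0.06, adjusted p = 1.23e-08). *Twsg1* lay between 33.6 and 37.7 CPM in all libraries and was not called in any comparison.

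*Nog* and *Bmper* turned direction with how the class was drawn. *Nog* went from 135 and 125 CPM at Day 2 to 75.5 and 80.0 CPM at Day 7 and 99.8 and 90.9 CPM at Day 10, with no overlap between days (Day 7 against Day 2, log2 -0.74 ± 0.07, adjusted p = 1.46e-07). At 0.5 times the resolution the Day 2 class also took in nearly all cells of the unnamed Clusters 2 and 7, making 3946 and 3220 cells instead of 1396 and 1031, and held 71.3 and 65.7 CPM of *Nog* instead of 165 and 153 on the unscaled CPM. The other days were redrawn as well: the Day 7 class grew from 3330 and 3084 to 5544 and 5519 cells, with Clusters 3, 6 and 12, and the Day 10 class lost nearly all of Cluster 10. The *Nog* CPM of these classes went from 66.7 and 69.5 to 62.5 and 64.0 at Day 7 and from 92.2 and 85.8 to 92.7 and 87.1 at Day 10. The *Nog* change was then 0.30 from Day 2 to Day 7 (adjusted p = 9.49e-04) and 0.81 to Day 10 (adjusted p = 7.93e-08) on the log2 scale, and at 2 times the resolution -0.31 (adjusted p = 3.16e-04) and -0.02 (adjusted p = 0.80). *Bmper* read 25.3 and 24.5 CPM, 15 and 12.8 CPM and 25.3 and 24.3 CPM, a dip at Day 7 (log2 -0.84 ± 0.08, adjusted p = 3.50e-07) that became 0.15 (adjusted p = 0.16) at 0.5 times and -0.51 at 2 times the resolution. The rise of *Nog* after Day 7 held at both resolutions (log2 0.29 with the main clusters, and 0.51 and 0.29).

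In contractile mesenchyme-like cells (15571 genes, with median UMIs per cell at Day 2 of 34052 in replicate A and 5618.5 in replicate B), 6 of 9 members were called from Day 2 to Day 7, 5 higher and 1 lower, beside 63.3% of all genes. From Day 7 to Day 10, 6 were called, 1 higher and 5 lower, beside 41.6%. Without Day 7 replicate A that step had 4 members and 3233 genes called instead of 6 and 6477, without Day 7 replicate B 4 members and 4188 genes, and at 2 times the resolution 1973 genes. From Day 2 to Day 10, 7 were called, 4 higher and 3 lower, beside 71.6%. Markers of other cells raised in this class differed between days. Day 2 Cluster 1 raised *Thbs2*, *Col1a1*, *Postn* and *Msx2*. Day 7 Cluster 2 raised *Col10a1*, *Scx*, *Prg4* and *Msx2*, and Day 10 Cluster 1 raised *Scx*, *Prg4*, *Msx2* and *Postn*. The part of these markers in the changes of the members was not tested. *Grem1* rose from 21.2 and 21.7 CPM over 64.3 and 62.4 CPM to 82.7 and 101 CPM, 4.27-fold (log2 2.10 ± 0.09, adjusted p = 1.43e-08). *Nog* held at 20.4 and 17.7 CPM, then 18.4 and 16.3 CPM, and then fell to 5.35 and 5.91 CPM. The fall against Day 2 was called (log2 -1.77 ± 0.10, adjusted p = 8.99e-08), but its size is uncertain, since immune-like cells held 17.2 and 11.7 CPM at Day 7 and 4.85 and 3.12 CPM at Day 10, and the share of contractile mesenchyme-like cells with a *Nog* UMI was near theirs on both days. *Fst* fell from 270.4 and 279 CPM to 87.1 and 95.7 CPM, and stood at 90.6 and 57.2 CPM at Day 10, where the replicates spread most. It was 3.71-fold lower at Day 10 than at Day 2 (log2 -1.89 ± 0.16, adjusted p = 2.13e-06), and its late change, not called with all libraries (log2 -0.30 ± 0.16, adjusted p = 0.15), was called without Day 10 replicate A (log2 -0.67, adjusted p = 8.43e-04).

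*Chrdl1* rose 4.11-fold in contractile mesenchyme-like cells, from 3.26 and 2.29 CPM to 11.3 and 12.1 CPM, and was highest at Day 7 (14.9 and 16.1 CPM). *Bmper* likewise peaked at Day 7, with 36.8 and 32.5 CPM against 12 and 12.4 CPM at Day 2 and 19.4 and 18.3 CPM at Day 10. *Chrd* rose between Days 2 and 7, from 0.726 and 0.679 CPM to 2.84 and 3.31 CPM (log2 2.12 ± 0.20, adjusted p = 6.42e-06). Without TMM scaling the Day 7 level was 2.78 and 3.18 CPM. Immune-like cells then held 2.18 and 0 CPM of *Chrd*, on 2 and 0 UMIs, so the size of the rise is uncertain. *Fstl1*, at 621 to 673 CPM in all libraries, was not called. *Chrdl2* rested on 7 to 23 UMIs per library, and its call from Day 2 to Day 7 was lost without Day 2 replicate B (log2 1.21, adjusted p = 0.083), while *Twsg1* gained one (log2 0.24, adjusted p = 0.0090, edgeR). At 2 times the resolution the Day 7 class shrank to 235 and 358 cells, of which 228 and 337 made up the whole of the shallow Cluster 10, and the Day 7 comparisons changed with it: *Chrd* and *Fst*, with *Fstl1*, then turned direction in some of them. The Day 7 peak of *Bmper* was then gone, at 20.3 and 10.2 CPM against 20.1 and 18.6 CPM at Day 10 on the unscaled CPM.

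**Figure D4:**
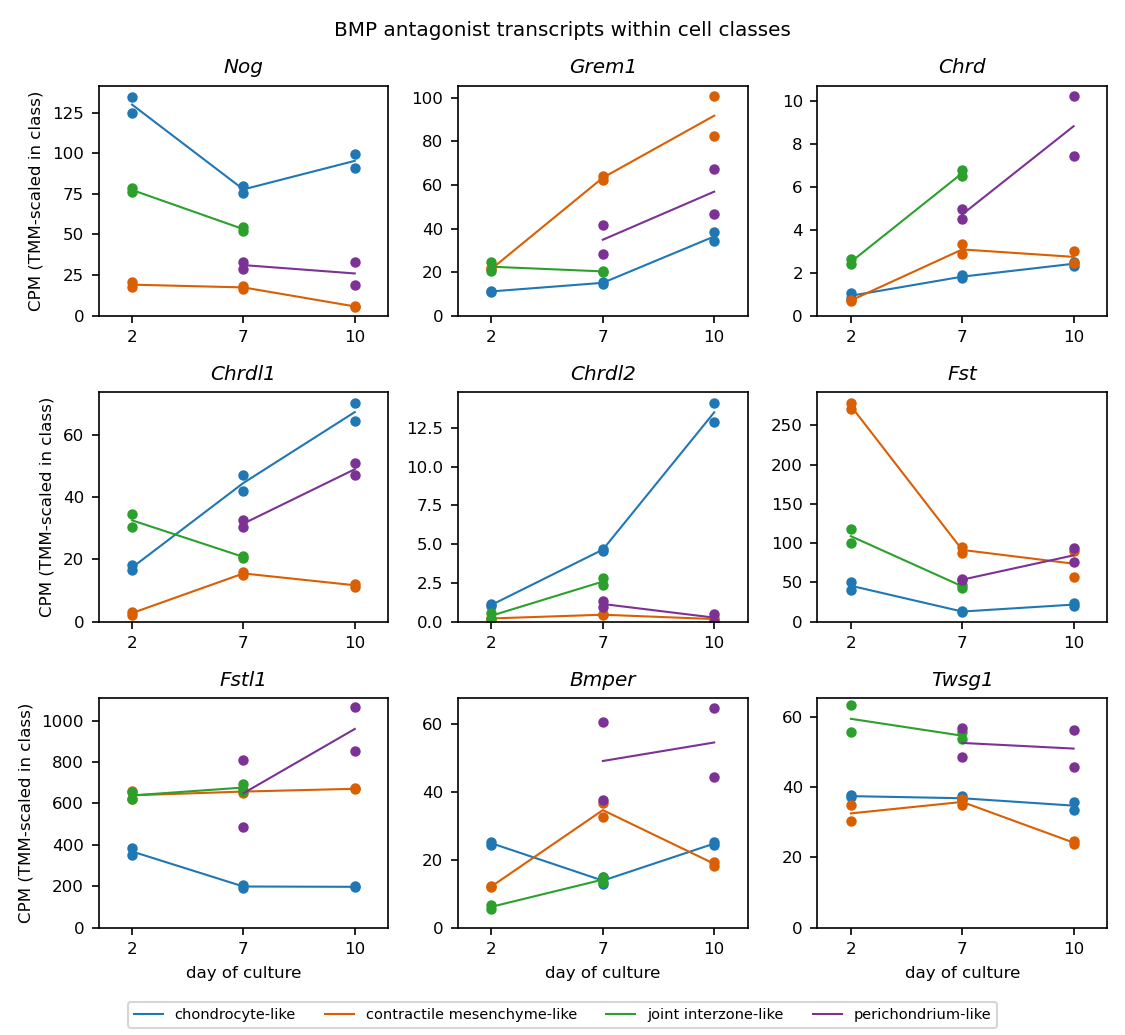
Level of each BMP antagonist (TMM-scaled CPM) by day within chondrocyte-like, contractile mesenchyme-like, joint interzone-like and perichondrium-like cells, with a point for each library and a line through the daily means. *Grem1* rises in both chondrocyte-like and contractile mesenchyme-like cells, *Nog* in contractile mesenchyme-like cells drops to 5.35 and 5.91 CPM at Day 10, and *Chrdl2* climbs in chondrocyte-like cells, to 14.1 and 12.9 CPM.

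Joint interzone-like cells were found at Days 2 and 7, where 6 of 9 members were called, 3 higher and 3 lower, beside 64.5% of all genes. *Nog* fell from 76.0 and 78.8 CPM to 52.2 and 54.3 CPM (log2 -0.54 ± 0.07, adjusted p = 8.62e-06), *Chrdl1* from 34.7 and 30.4 CPM to 20.4 and 21.2 CPM (log2 -0.65 ± 0.10, adjusted p = 3.16e-05) and *Fst* from 99.8 and 118 CPM to 46.8 and 43.3 CPM (log2 -1.27 ± 0.09, adjusted p = 8.06e-09). The Day 7 level of *Fst* overlapped the 24.7 and 46.7 CPM of immune-like cells, which is no exact floor for *Fst*. Chondrocyte-like cells of the same libraries held less than either class, at 13.3 and 12.6 CPM. How much background added to the Day 7 level of *Fst* was not tested, so the exact size of its fall is uncertain. *Chrd* rose from 2.38 and 2.61 CPM to 6.47 and 6.78 CPM, and *Bmper* from 6.85 and 5.55 CPM to 14.9 and 13.5 CPM. *Chrdl2* rose from 0.190 and 0.587 CPM, on 4 and 9 UMIs, to 2.80 and 2.38 CPM (log2 2.81, and 3.70 without Day 2 replicate B). This Day 7 level cannot be told apart from that of immune-like cells, 5.45 and 0 CPM without TMM scaling (5 and 0 UMIs). That value is no exact floor. On the same scale, contractile mesenchyme-like cells of these libraries held 0.470 and 0.405 CPM, against 2.58 and 2.14 CPM in joint interzone-like cells. No joint interzone-like class was found at Day 7 with 0.5 times the resolution, nor at Day 2 with 2 times it, so neither gave a value. *Grem1* read 20.4 and 24.5 CPM and then 20.2 and 20.4 CPM, and was not called. The cartilage markers raised over other clusters of the same day differed between the days. Beside 5 interzone markers, the Day 2 Cluster 6 raised the chondrocyte markers *Acan*, *Col9a1*, *Col9a2*, *Matn4*, *Mia*, *Sox9* and *Wwp2*. Beside 4 interzone markers, the Day 7 Cluster 5 raised none of these chondrocyte markers. Their part in the falls of *Nog* and *Chrdl1* was not tested.

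Perichondrium-like cells were found at Days 7 and 10, and 4 of 8 members tested were called, all higher at Day 10, beside 27.4% of all genes. *Chrdl1* went from 32.6 and 30.4 CPM to 50.8 and 47.1 CPM (log2 0.64 ± 0.16, adjusted p = 0.011), and *Fst* from 52.8 and 54.3 CPM to 93.5 and 75.5 CPM (log2 0.66 ± 0.16, adjusted p = 0.010). *Grem1* rose from 41.6 and 28.1 CPM to 46.7 and 67.2 CPM (adjusted p = 0.027) and *Chrd* from 4.94 and 4.47 CPM to 10.2 and 7.41 CPM (adjusted p = 0.034), by edgeR. The count fell to 2 without Day 7 replicate B, to 1 without Day 10 replicate A and to 1 at 2 times the resolution. At 0.5 times the resolution no cluster was perichondrium-like, and nearly all cells of Day 7 Cluster 3 (1282 of 1283 and 1359 of 1360) went into the chondrocyte-like class. The markers of other cells raised over other clusters of the same day also differed between the days. Day 10 Cluster 8 also raised *Col10a1*, *Mmp13*, *Ibsp*, *Prg4*, *Mki67* and *Top2a*, none of which Day 7 Cluster 3 raised. Mitochondrial transcripts led Cluster 3 of Day 7 and not Cluster 8 of Day 10. Their part in the rises was not tested.

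In myocyte-like cells, 2 of 9 members were called between Days 2 and 7 (6 at an unadjusted p under 0.05), beside 22.6% of all genes. *Chrdl2* had 14.0 and 10.2 CPM at Day 2, on 142 and 87 UMIs, and no UMI at Day 7, where a count of 0 allows up to 3.46 and 24.5 CPM (3 counts per library). The rise of *Grem1* rested on 7 and 3 UMIs at Day 7, and both calls were lost without Day 2 replicate A, Day 2 replicate B or Day 7 replicate A, when genes called also fell from 2536 to 673, 565 and 546. In immune-like cells, with 28 to 163 cells per library at Days 7 and 10, 0 of 7 members were called by edgeR (2 at an unadjusted p under 0.05, and 2 with replicate letter as a block), beside 1.18% of all genes.

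The change in chondrocyte-like cells was then set against that of all remaining cells of the same libraries in an edgeR interaction test (18259 genes). Between Days 2 and 7, 7 members differed, 2 with the higher log2 change in chondrocyte-like cells and 5 with the higher one in the remaining cells, beside 47.5% of all genes. Between Days 7 and 10, 7 differed, all with the higher change in chondrocyte-like cells, beside 36.7%, and between Days 2 and 10, 8 differed, 3 and 5 in the same order, beside 48.5%. *Bmper* differed most at the first step: 26.0 and 25 CPM fell to 15.7 and 13.5 CPM in chondrocyte-like cells, while 9.43 and 9.27 CPM rose to 27.7 and 22.2 CPM in the remaining cells (difference of log2 changes -2.22 ± 0.07, adjusted p = 9.40e-11). The fall within chondrocyte-like cells became a log2 change of 0.15 at 0.5 times the resolution (adjusted p = 0.16, edgeR). At Day 2 the remaining cells included the unnamed Cluster 7, where *Bmper* was highest. At Day 10 they included the shallow, unnamed Cluster 3 (821 and 1005 cells), which raised *Col2a1*, *Acan*, *Col11a2*, *Matn4* and *Wwp2* of the chondrocyte markers. *Chrdl2* differed most over the whole course, going from 1.06 and 1.17 CPM to 15 and 13.8 CPM in chondrocyte-like cells and from 0.987 and 0.685 CPM to 0.699 and 0.915 CPM in the rest (difference 3.76, adjusted p = 5.08e-08). *Grem1* lay lower in chondrocyte-like cells at Day 7, with 16.2 and 15.3 CPM at Day 7 against 39.0 and 36.6 CPM in the remaining cells, and 41.2 and 36.6 CPM against 46.4 and 47.6 CPM at Day 10. The difference was -1.39 ± 0.09 for the first step (adjusted p = 2.50e-08) and 0.99 ± 0.07 for the next (adjusted p = 2.95e-07), and the former shrank to -0.27 at 0.5 times the resolution (adjusted p = 0.032). Over the whole course it was -0.40 (adjusted p = 0.0013), which turned to 0.74 at 0.5 times the resolution, as did that of *Nog* from -0.17 to 1.27.

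The share of cells with at least 1 UMI depends on depth, so cells of at least 15000 UMIs were thinned to 15000 before shares were compared, which left 5 to 39 immune-like cells per library at Days 2 and 7 and 101 and 133 at Day 10, and no share for the 5 cells of Day 2 replicate B. Immune-like cells, which are not known to make most of these antagonists, served as a stand-in for the background that free RNA in droplets gives. Doublets were not removed, and the source of this background was not tested. A UMI of *Nog* was found in 60.6% and 57.3% of chondrocyte-like cells at Day 2, then 48.6% and 50.2%, then 57.2% and 56.1% on the last day. In contractile mesenchyme-like cells it was found in 19.7% and 20.4%, 17.5% and 15.8%, and 4.77% and 6.67%, and in immune-like cells in 0 of the 13 cells of Day 2 replicate A, in 14.8% and 12.8% at Day 7 and in 5.94% and 1.5% at Day 10. The contractile mesenchyme-like share at Days 7 and 10 thus lay near the immune-like one and cannot be told apart from background. The 0 of 13 cells allows a share of up to 23.1%, which also covers the contractile mesenchyme-like share at Day 2, and such limits cover counting error only. Unthinned, 58.5% and 59.9% of chondrocyte-like cells at Day 2 held *Nog*, and 58.0% and 53.2% at Day 10, against 7.63% (95% exact binomial interval 3.55% to 14.0%) and 4.29% (1.74% to 8.65%) of immune-like cells at Day 10. Median depths of these classes at Day 10 were 24036 and 21556 UMIs in chondrocyte-like cells and 21231.5 and 21616 UMIs in immune-like cells.

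*Chrdl1* was held by more chondrocyte-like cells with time, from 18.3% and 18.7% at Day 2 over 37.6% and 35.5% to 52.7% and 49.6% at Day 10, against 14.8% and 10.3% of immune-like cells at Day 7 and 6.93% and 6.77% at Day 10. *Chrdl2* went from 1.67% and 1.91% over 5.17% and 5.04% to 14.9% and 14.2%, against 7.41% and 0 of immune-like cells at Day 7 and 0 and 0.752% at Day 10. A count of 0 of 101 cells allows a share of up to 2.97%. At Day 7 the *Chrdl2* share of chondrocyte-like cells cannot be told apart from that of these few immune-like cells. Its CPM lay above that of contractile mesenchyme-like cells in the same libraries. *Grem1* was found in 15% and 15.1%, 28.7% and 28.1%, and 35.4% and 40.5% of contractile mesenchyme-like cells, and in 12.2% and 10.5%, 11.9% and 11.1%, and 22.2% and 22.4% of chondrocyte-like cells, with 7.41% and 7.69% of immune-like cells at Day 7 and 4.95% and 2.26% at Day 10. Its chondrocyte-like shares at Days 2 and 7 overlapped. *Fst* was found in 70.7% and 69.4%, then 47.3% and 47.5%, and then 42.2% and 36.7% of contractile mesenchyme-like cells, and in 32.8% and 26.5%, 11.6% and 10.4%, and 17.2% and 19.2% of chondrocyte-like cells, with 14.8% and 15.4% of immune-like cells at Day 7 and 5.94% and 9.77% at Day 10. *Twsg1* was found in 23.1% to 40.7% of immune-like cells, near its share among all cells (32.7% to 46.5%). These shares alone do not tell its presence in a class apart from free RNA. Its level did differ between classes. Without TMM scaling it was 14.2 and 15.5 CPM in myocyte-like cells at Day 2, against 60.7 and 69.5 CPM in joint interzone-like cells. The part of free RNA in these levels was not tested. Cells with both *Nog* and *Chrdl1* made up 31% and 29.8% of the chondrocyte-like cells at Day 10, beside 30.1% and 27.8% for the product of the separate shares.

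The rest of the pathway moved in whole cultures as follows between Day 2 and Day 10 (edgeR, same test and background). Of 8 other secreted BMP inhibitors tested out of 10, 4 rose, 3 fell and 1 was not called. *Fstl3*, a follistatin relative, rose from 8.75 and 7.59 CPM to 21.4 and 23.6 CPM (log2 1.46), and *Nbl1*, of the gremlin family, from 15.1 and 14.5 CPM to 33.9 and 34.3 CPM (log2 1.20). *Sostdc1*, a WNT and BMP inhibitor, fell from 39.7 and 38.7 CPM to 3.08 and 4.48 CPM (log2 -3.38, adjusted p = 9.08e-08).

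Of 11 BMP and GDF ligands, 4 rose and 7 fell. *Bmp7* fell from 21.2 and 22.5 CPM to 3.19 and 4.06 CPM (log2 -2.59, adjusted p = 6.20e-08) and *Gdf5*, the joint interzone ligand, from 20.2 and 17.5 CPM to 2.31 and 2.53 CPM (log2 -2.96, adjusted p = 9.03e-08). *Bmp4* fell less, from 76.6 and 72.4 CPM to 52.5 and 57.3 CPM (log2 -0.44). *Bmp3*, *Bmp6*, *Bmp8a* and *Bmp8b* rose, and *Bmp6* went from 0.273 and 0.428 CPM to 2.66 and 2.10 CPM. Of 5 activin-class genes, 2 rose and 2 fell, among them *Inhba*, an activin subunit that follistatin binds, which rose from 49.9 and 43.5 CPM to 142 and 145 CPM (log2 1.62, adjusted p = 8.13e-08). *Inhba* rose where *Fst* fell from Day 2 to Day 7 (log2 1.26, adjusted p = 4.96e-07), and both rose from Day 7 to Day 10 (*Inhba*, log2 0.36, adjusted p = 0.0022, edgeR).

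Of 6 receptors, 2 rose and 4 fell: *Bmpr1b*, the type I receptor of cartilage condensations, went from 21.5 CPM in both Day 2 libraries to 5.66 and 5.21 CPM (log2 -1.99, adjusted p = 2.56e-08), and *Acvr1* from 13.2 and 14.4 CPM to 23.8 and 21.7 CPM (log2 0.72). The 4 co-receptors tested all fell, with *Hjv* at 0 and 6 UMIs at Day 10. Of 3 tolloid proteases, *Bmp1*, which cleaves chordin, rose from 37.2 and 34.9 CPM to 77.3 and 70.7 CPM (log2 1.04, adjusted p = 4.99e-07) and 1 fell. Of 4 SMADs, 3 fell and none rose.

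All 9 BMP response genes fell from Day 2 to Day 7, 4 rose and 2 fell from Day 7 to Day 10, and 7 were lower at Day 10 than at Day 2. *Id1*, a direct SMAD target, stood at 546 and 482 CPM at Day 2, 190.4 and 205 CPM at Day 7 and 188 and 191 CPM at Day 10 (Day 10 against Day 2, log2 -1.44, adjusted p = 2.69e-07). *Msx1* fell at both steps, from 20.5 and 20.4 CPM over 10.2 and 9.55 CPM to 5.47 and 5.84 CPM. *Id3* and *Bambi* came back by Day 10 and were not called against Day 2 (log2 -0.04 and -0.09). The list's median log2 change was -0.65, 0.21 and -0.76 in the 3 comparisons. Genes of the dissociation response, such as *Fos* and *Jun*, moved as well, with 7 higher and 3 lower of 12 at Day 10 against Day 2, and their part in these results was not tested.

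**Figure D5:**
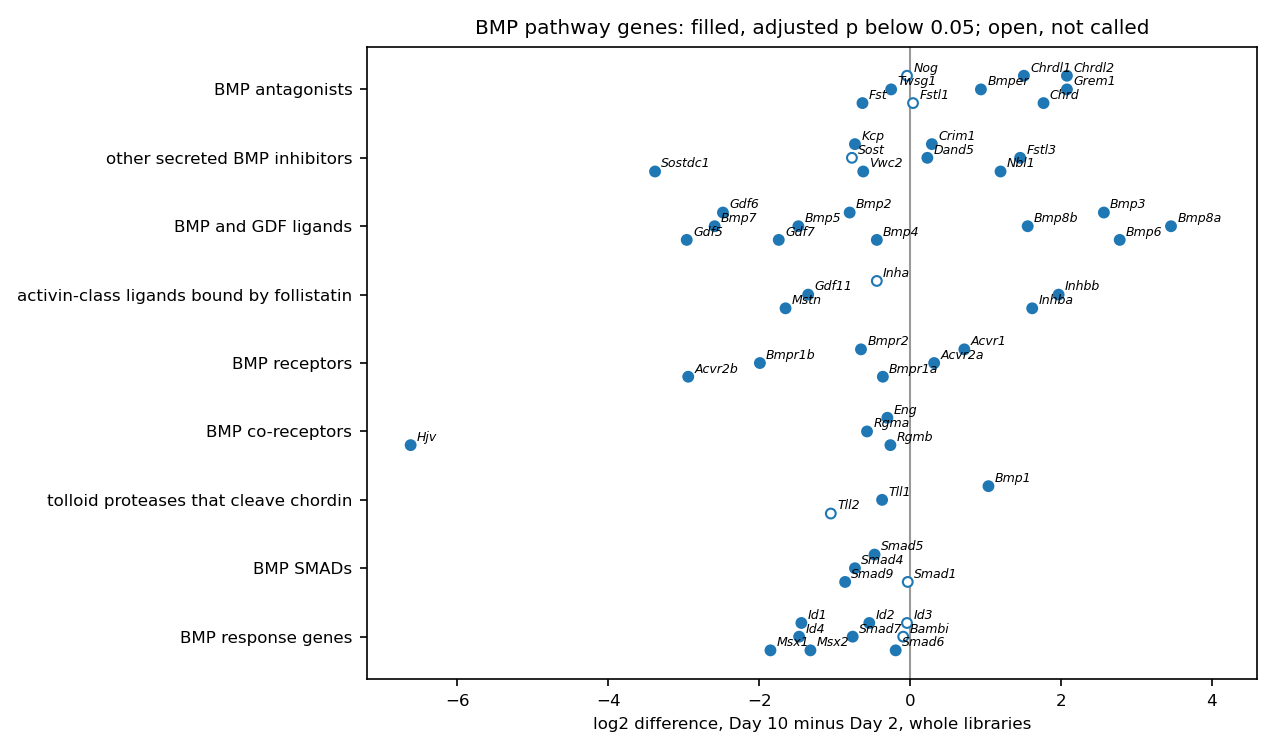
Log2 fold change from Day 2 to Day 10 in whole cultures (horizontal axis) for tested genes of the BMP pathway lists (rows), filled where the edgeR adjusted p was below 0.05. The 5 antagonists that rose lie to the right of 0, the response genes and receptors mostly to the left, and *Hjv* lies farthest left, at a fitted value that depends on the prior count because it had 0 and 6 UMIs at Day 10.

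Across the 45 clusters with at least 10 cells in both libraries, the genes whose levels were most like those of a member were named by Pearson's r of log2(CPM + 1), as a description over clusters that share libraries and depth. *Grem1* was most like *Lrrc32* (r = 0.86), *Mfge8* (0.83), *Inhba* (0.80), *Loxl3* (0.79) and *Ptgs2* (0.79). *Chrdl1* was most like *Fkbp14* (0.90), *Timp3* (0.89) and *Prelp* (0.88), *Fstl1* most like *Fbln2* (0.88), and *Bmper* most like *F5* (0.85). *Nog* had weaker matches, *Fibin* and *Gprc5c* (0.75 each), as had *Chrdl2* with *Flvcr2* and *Sox8* (0.71 each). *Fst* was most like *Zc2hc1a* (0.80) and *Enc1* (0.79), *Chrd* most like *Ltbp3* (0.76), and *Twsg1* most like *Creb3l2* (0.79).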

How the data were processed

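The authors deposited a matrix of raw UMI counts for each of the 6 libraries, with genes, barcodes and whole-number counts as Cell Ranger 6.1.2 with STAR on GRCm38 (mm10) gave them, and analysed them in Seurat 4.1.0, per the submitters' processing notes. Barcodes were filtered with the limits of the study's methods, at least 800 or 1000 UMIs, 200 to 7500 genes, at most 25% to 40% mitochondrial and 35% to 40% ribosomal UMIs depending on the library. Doublets were not removed. Cells were clustered per day in Seurat 5.3.0 (SCTransform, 3000 features, anchor integration, 35 dimensions, resolution 0.5, 0.5 and 0.7), after the members and other pathway genes were taken out of the features.

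Clusters were named where at least 4 markers of a list were raised by a log2 difference of at least 1 in at least 10% of cells, a rule set after the leading genes were seen, and a cluster whose leading marker came from another list, or which had a median UMI count under 1/3 of its library's with no marker among its 10 leading genes, stayed unnamed. UMI counts were summed per library, and per library and class of at least 10 cells, filtered with filterByExpr, scaled by TMM and tested in edgeR 4.0.16 (R 4.3.3) with the quasi-likelihood test on day, with Benjamini-Hochberg adjustment over all genes and calls at an adjusted p below 0.05. The interaction fit had the library as a block. The fits were tested on simulated data, where the share of false calls lay above the threshold when each gene kept its own spread. Far fewer genes were changed there than were called in these data, so that this share does not carry over to them. Calls near the threshold are still to be read with caution. Alternatives were DESeq2 1.42.0, RLE factors, library totals alone, no filter on genes, all barcodes, cells of at least 3000 UMIs, other cluster resolutions, clusters without integration, replicate letter as a block, and leaving out each library. Chondrocyte-like cells without clusters that raised contractile markers, and thinning to 15000 UMIs, were added after the data were seen.

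The text names all 9 members, the pathway lists as counts with values for genes called, and for members reaching 10 CPM in a cluster the genes, of the 5 nearest, with the highest Pearson correlation of log2(CPM + 1) across clusters. A gene of the pathway lists is not reported here and is left out of their counts. Members and lists were chosen with earlier results of these data known. Replicate letters did not pair the libraries: deviations from the day means correlated at -0.016, -0.057 and -0.008. All per-sample columns of the files were used.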

Additional observations from a re-analysis of the deposited data

Results flagged for a closer look

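The change over days differed between chondrocyte-like cells and the remaining cells of the same libraries for the following genes, each by the edgeR test of that difference. Values are the log2 change in chondrocyte-like cells minus that in the remaining cells. From Day 2 to Day 7 the difference was -2.22 for *Bmper*, -1.39 for *Grem1*, -1.08 for *Fst*, -1.04 for *Fstl1* and -0.66 for *Nog*, with the lower change in chondrocyte-like cells, and 1.21 for *Chrdl2* and 0.48 for *Chrdl1*. From Day 7 to Day 10 all were above 0, at 2.55 for *Chrdl2*, 1.10 for *Bmper*, 0.99 for *Grem1*, 0.55 for *Fst*, 0.50 for *Nog*, 0.45 for *Chrdl1* and 0.36 for *Twsg1*. From Day 2 to Day 10 they were 3.76 for *Chrdl2*, 0.93 for *Chrdl1* and 0.26 for *Twsg1*, and -1.12 for *Bmper*, -1.06 for *Fstl1*, -0.53 for *Fst*, -0.40 for *Grem1* and -0.17 for *Nog*. Some of these turned or shrank with the cluster resolution. Within chondrocyte-like cells alone, the change of *Bmper* from Day 2 to Day 7 went from -0.84 to 0.15 at 0.5 times the resolution (adjusted p = 0.16, edgeR). At 0.5 times it *Nog* was 0.51 from Day 2 to Day 7 (adjusted p = 7.75e-05) and 1.27 from Day 2 to Day 10, *Grem1* was -0.27 and then 0.74 over the same intervals, and *Fst* -0.13 from Day 2 to Day 10 (adjusted p = 0.28). At 2 times it *Nog* was -0.08 from Day 2 to Day 7 (adjusted p = 0.34) and 0.29 from Day 2 to Day 10 (edgeR).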

How the results depend on the processing

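Of the members' whole-culture values under an alternative, 323 kept direction and side of the threshold, 15 lost and 5 gained the call, and 8 turned direction. Turned values are given as log2 changes, with the reported value in brackets. The cause of a turn was not tested. With library totals alone, Day 7 against Day 2 gave -0.11 for *Nog* (0.17) and -0.20 for *Twsg1* (0.08), and Day 10 against Day 2 gave -0.22 for *Fstl1* (0.04). With all barcodes *Nog* was 0.07 at Day 10 against Day 2 (-0.04). Leaving out each library in turn moved *Bmper*, Day 10 against Day 7, between -0.06 and 0.22 (0.07), and, Day 10 against Day 2, *Nog* between -0.10 and 0.03 (-0.04) and *Fstl1* between -0.00 and 0.10 (0.04).

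Within chondrocyte-like cells, 0.5 times the resolution gave for Day 7 against Day 2 0.30 for *Nog* (-0.74), 0.15 for *Bmper* (-0.84) and 0.07 for *Twsg1* (-0.03), and for Day 10 against Day 2 0.81 for *Nog* (-0.45), 0.64 for *Bmper* (-0.01) and 0.01 for *Twsg1* (-0.11). At 2 times the resolution *Bmper* was 0.36 at Day 10 against Day 2, and *Fstl1* 0.02 at Day 10 against Day 7 (-0.01). Libraries left out in turn moved *Twsg1*, Day 7 against Day 2, between -0.04 and 0.01, *Fstl1*, Day 10 against Day 7, between -0.06 and 0.04, and *Bmper*, Day 10 against Day 2, between -0.03 and 0.03. In contractile mesenchyme-like cells, 0.5 times the resolution gave 0.10 for *Nog* (-0.14) and -0.03 for *Fstl1* (0.04) at Day 7 against Day 2. At 2 times it, with only shallow Day 7 cells left in the class, genes called fell to 3640 of 9857 and 1973 of 6477, *Chrd*, with 0 UMIs in Day 7 Cluster 10, was fitted at -8.08 (2.12) and then 9.83 (-0.17), which are no bounds, *Fstl1* -0.39 (0.04) and *Fst*, Day 10 against Day 7, 0.60 (-0.30). *Chrdl2*, Day 10 against Day 2, ranged from -0.70 to 0.06 over the libraries left out (-0.31).

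In perichondrium-like cells, 2 times the resolution left 1 member and 2233 genes called (4 and 3399) and gave 0.33 for *Nog* (-0.24). Libraries left out in turn gave 1 to 4 members, 1307 to 3912 genes, -0.70 to 0.08 for *Nog*, -0.14 to 0.56 for *Bmper* (0.16) and -0.20 to 0.10 for *Twsg1* (-0.04). For the difference between chondrocyte-like and remaining cells, 0.5 times the resolution gave 0.51 for *Nog* at Day 7 against Day 2 (-0.66), and, at Day 10 against Day 2, 1.27 for *Nog* (-0.17) and 0.74 for *Grem1* (-0.40). At 2 times it *Nog* was 0.29 at Day 10 against Day 2, and, at Day 10 against Day 7, *Chrd* 0.02 (-0.01) and *Fstl1* 0.06 (-0.02). Without clusters that also raised contractile markers *Chrd* was 0.06 there.

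Leaving out each library gave 4 to 7 members called in whole cultures at Day 10 against Day 7, with 4 without either Day 7 library. Genes called at that step ranged from 3961 to 7001 in chondrocyte-like cells and from 3233 to 7376 in contractile mesenchyme-like cells, lowest without Day 7 replicate A. In myocyte-like cells 0 to 2 members and 546 to 2591 genes were called, and in immune-like cells 0 to 2 members and 148 to 1128 genes. With replicate letter as a block, which is not known to pair the cultures, 7, 8 and 7 members were called in whole cultures, *Chrdl1* being gained at Day 10 against Day 7 (0.16, adjusted p = 0.041, edgeR). The block left 1428 of 2536 genes called in myocyte-like cells and raised immune-like calls from 116 to 396 genes and from 0 to 2 members. *Chrd* lost its call in chondrocyte-like cells at Day 10 against Day 7 under the block, *Fstl1* gained one in perichondrium-like cells, and no other call of a member in the larger classes changed. Low counts, as for *Chrdl2* at Day 2 outside muscle, limit the precision. Perichondrium-like cells had no value at 0.5 times the resolution and joint interzone-like cells none at either resolution, because a class was not found on a day compared.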

Other observations

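The rest of the BMP pathway also changed within the larger classes between Day 2 and Day 10 (edgeR, the same fits as for the members). In chondrocyte-like cells all 9 BMP response genes fell, with a median log2 change of -1.26, and all 6 receptors fell, with a median of -0.75, beside a median of 0.03 over all genes and 75.1% of genes called. *Bmpr1b* had 29.5 and 27.8 CPM at Day 2 and 4.43 and 4.20 CPM at Day 10 (log2 -2.73, adjusted p = 7.73e-12). *Id1* had 669 and 593 CPM and then 165 and 168 CPM (log2 -1.92, adjusted p = 9.40e-12). Of the 9 ligands tested there, 3 rose and 5 fell. *Bmp6* rose from 0.719 and 1.03 CPM to 9.97 and 8.28 CPM (log2 3.40, adjusted p = 6.17e-10), while *Bmp7* fell from 26.4 and 29.0 CPM to 9.81 and 10.7 CPM (log2 -1.43, adjusted p = 6.32e-10).

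In contractile mesenchyme-like cells, 71.6% of all genes were called, with a median log2 change of -0.00. There 8 of the 9 response genes fell, with a median of -1.24, and *Id3* was not called (log2 -0.02, adjusted p = 0.85). Of the 10 ligands tested, 1 rose and 7 fell. *Bmp7* went from 10.3 and 10.9 CPM to 0.324 and 0.258 CPM (log2 -5.16, adjusted p = 4.48e-09, on 18 and 12 UMIs at Day 10). *Inhba*, the activin subunit, rose from 136 and 146 CPM to 263 and 265 CPM (log2 0.90, adjusted p = 4.26e-07) in the class where *Fst* fell. The difference between the classes was not tested for these genes, and the same lists fell in whole cultures, so that these counts are no independent support for each other. Dissociation response genes also changed in both classes, with 7 higher and 5 lower of 12 in chondrocyte-like cells and 6 higher and 3 lower in contractile mesenchyme-like cells.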
